A study of Triticum aestivum with 6 samples.

Results

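The genes described are those whose protein name marks them as chloride channel proteins (CLC), S-type anion channels or aluminum-activated malate transporters (ALMT). They were chosen by name alone, from the first recommended or submitted UniProt name the authors paired with each gene, and they number 87 of 83219 genes. The CLC name gave 28 genes, the S-type name 37 and the ALMT name 22. The names come from the best protein match, which was an Arabidopsis protein for 83 members and a wheat protein for 4, so they label sequence likeness and not a tested function. RNA-seq was done on roots of wild-type wheat (Triticum aestivum), line JW1, in 2 groups of 3 samples. Seedlings germinated for 3 days, had the endosperm removed, spent 3 days with 2 mM nitrate and then 2 days without nitrogen. For the final 3 h all of them received 5 µM abscisic acid (ABA), a stress hormone. The 0N+ABA group received 2 mM potassium chloride with it and the 2N+ABA group 2 mM potassium nitrate. Chloride therefore replaced nitrate in 0N+ABA, and effects of adding nitrate and of adding less chloride cannot be told apart. The labelled basal medium held 1.5 mM potassium chloride and 2.5 mM of calcium nitrate or calcium chloride, and the labels do not say which calcium salt went with which group. Whether replicates were grown as separate cultures is not labelled, and the p-values then reflect only how far these samples spread, which may be technical.

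Plant cells move chloride, nitrate and malate through several unrelated protein families. CLC proteins sit in inner membranes, and some of them exchange anions for protons to load the vacuole. In Arabidopsis CLC-b is a vacuolar exchanger that prefers nitrate, CLC-c is a vacuolar protein tied to chloride, CLC-d and CLC-f reside in the Golgi network, and CLC-e is found in plastids. S-type anion channels of the SLAC1 family release chloride and nitrate across the plasma membrane, and ABA opens SLAC1 in guard cells through SnRK2 kinases that PP2C phosphatases otherwise hold inactive. ALMT proteins carry malate and, in some members, chloride across the plasma membrane or the vacuolar membrane.

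The 6 libraries held between 16907317 and 17735564 estimated counts. On the first principal component of all tested genes, which held 42.1% of the variance, 0N+ABA replicate 2 lay at -1.3, between replicates 1 and 3 of its group at -63.8 and -74.1 and the 2N+ABA libraries at 38.8 to 59.9. Results below are therefore also given without that library where it matters. One label names leaf tissue and the others root. Summed over 29 root marker genes (Casparian strip membrane proteins and nicotianamine aminotransferases), the level in TPM, a measure per transcript length that sums to the same total in each library, was 209, 290 and 203 in the 0N+ABA libraries in order of replicate number, and 242, 272 and 270 TPM in 2N+ABA. Its members differed in pattern. Casparian strip membrane protein 1 on chromosome 2A (TraesCS2A02G383000) stood at 26.4, 43.9 and 27.2 TPM and then 37.8, 47.6 and 43.9 TPM, and nicotianamine aminotransferase B on 1B (TraesCS1B02G300600) at 15.4, 9.16 and 11.7 TPM and then 8.28, 8.61 and 7.91 TPM. Of the 24 root markers tested 0 rose and 0 fell by edgeR, and DESeq2 gave 1 fall. At an unadjusted p under 0.05 there were 1 higher, against 8.62% of all genes, and 2 lower, against 7.77%. A total of 7 rose and 3 fell without 0N+ABA replicate 2. For 157 genes of photosynthesis the sum was 267, 236 and 345 TPM in 0N+ABA and 338, 216 and 182 TPM in 2N+ABA, with 44 to 51 of them at 0 counts in a library. The 9 guard cell marker genes summed to 6.32, 1.55 and 9.04 TPM in 0N+ABA and 2.39, 4.61 and 1.6 TPM in 2N+ABA. Most of that came from genes for the potassium channel KAT1, led by TraesCS6D02G152200 at 3.03, 0.59 and 4.41 TPM and then 1.21, 2.48 and 0.7 TPM, while FAMA was at 0 in 4 of the 6 libraries and MUTE at 0.08 to 0.09 TPM. The part of these marker levels in the results that follow was not tested.

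Nitrate given with ABA went with higher transcript levels of 10 CLC genes and 2 S-type channel genes past the threshold, and with no lower level past it. Of the 87 members, 48 had enough counts to be tested, 32 had only a few counts and 7 had none in any library. By edgeR's quasi-likelihood test with an adjusted p under 0.05, 12 of the 48 rose, against 1.67% of all 53862 genes tested, and 0 fell, against 0.579% of all genes. DESeq2 and limma-voom also called 0 falls, and at an unadjusted p under 0.05 there were 25 higher members, against 8.62% of all genes, and 1 lower, against 7.77%. In 27 of 48 members, or 56.2%, every 2N+ABA library lay above every 0N+ABA library in counts scaled to library size (CPM), against 11.3% of all genes, and in 0 members every one lay below, against 10.8%. The median log2 fold change of the tested members was 0.43, with a range from -1.27 to 2.68, and that of all genes was -0.02. Of the tested members 44 reached the filter level of 10 counts at the median library size in every library, and 0 reached it in 1 group alone. The CLC-e genes TraesCS3B02G285500 and TraesCS3A02G253600 reached it in every 2N+ABA library but in only 1 and 2 0N+ABA libraries. Both are among the 27, and the 0N+ABA libraries alone would not have carried them past the filter. TraesCS6B02G270300 (ALMT10) and TraesCS1B02G456500 (SLAH2) reached it in 2 0N+ABA libraries and 1 2N+ABA library each. The 12 risen genes were 10 of 25 tested CLC genes and 2 of 12 tested S-type channel genes, while 0 of 11 tested ALMT genes passed. In bulk RNA, more cells of a type and more RNA per cell cannot be told apart.

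**Figure D1:**
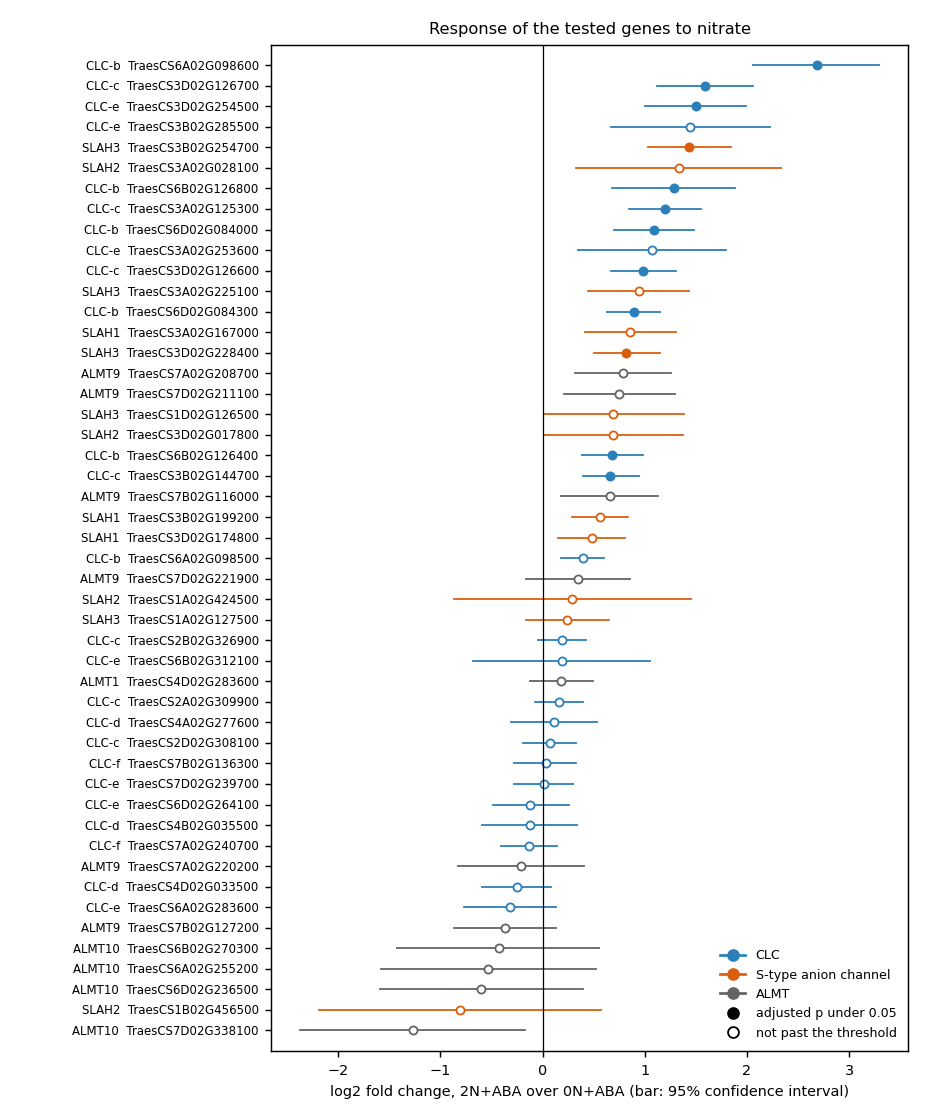
Log2 fold change of the 48 tested genes, 2N+ABA over 0N+ABA, with 95% confidence intervals from edgeR, coloured by family. Filled points are the 12 genes with an adjusted p under 0.05, all of them to the right of 0, and open points did not pass.

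The genes matched to CLC-b, the nitrate-preferring exchanger of the vacuole, held 5 of the 12 rises. All 6 lie on chromosomes 6A, 6B and 6D by their IDs, all 6 were tested, and 5 rose. Their summed level was 23.7, 28 and 23.4 TPM in the 0N+ABA libraries, given here and below in order of replicate number, and 41.6, 44.6 and 45.3 TPM in the 2N+ABA libraries. No 0N+ABA library reached the lowest 2N+ABA library. TraesCS6A02G098600 had the largest log2 fold change of all 48 tested members. It was nearly silent without nitrate, at 0.29, 0.54 and 0.32 TPM, and stood at 2.22, 2.82 and 2.1 TPM with nitrate. That is a 6.39-fold difference by edgeR (log2 fold change 2.68, SE 0.269, adjusted p = 0.00241). TraesCS6D02G084300, the most abundant CLC-b gene, went from 9.47, 9.93 and 8.37 TPM to 15.1, 17.2 and 16.4 TPM (log2 fold change 0.89, SE 0.115, adjusted p = 0.0085). Both calls held whichever library was left out. The groups did not overlap in either gene.

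A further 3 CLC-b genes rose with larger p. TraesCS6D02G084000 went from 3.04, 4.64 and 3.4 TPM to 6.91, 7.89 and 8 TPM (log2 fold change 1.09, adjusted p = 0.0187). TraesCS6B02G126400 went from 4.68, 5.93 and 4.33 TPM to 7.87, 6.72 and 8.47 TPM (log2 fold change 0.68, adjusted p = 0.0378). In TraesCS6B02G126800 the levels were 0.83, 1.61 and 1.52 TPM and then 2.43, 3.43 and 3.45 TPM (log2 fold change 1.28, adjusted p = 0.0485). In all of these genes the groups were apart, with 0N+ABA replicate 2 the highest library of its group. The calls of these genes held without 0N+ABA replicate 2 and were lost when any other library was left out, with adjusted p between 0.0667 and 0.0814, 0.0837 and 0.159, and 0.0924 and 0.158 in the order given. TraesCS6A02G098500, whose ID is next to that of TraesCS6A02G098600, did not pass, at 5.39, 5.38 and 5.48 TPM against 7.05, 6.55 and 6.92 TPM (log2 fold change 0.39, SE 0.0904, adjusted p = 0.0714). Its groups did not overlap either, and it passed without 0N+ABA replicate 2 (adjusted p = 0.0498).

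CLC-c genes, matched to the chloride-linked vacuolar protein of Arabidopsis, split by chromosome. The 4 tested genes on chromosomes 3A, 3B and 3D all rose, while 0 of the 3 on chromosomes 2A, 2B and 2D passed. TraesCS3A02G125300 held the largest share of the chromosome 3 level and went from 10.7, 14.3 and 9.9 TPM to 27.2, 22.9 and 27.3 TPM (log2 fold change 1.20, SE 0.154, adjusted p = 0.00832). On chromosome 3D, TraesCS3D02G126700 went from 1, 1.49 and 1.02 TPM to 3.46, 2.85 and 3.95 TPM (log2 fold change 1.59, SE 0.207, adjusted p = 0.00863). Every 2N+ABA library of both genes was above every 0N+ABA library, and 0N+ABA replicate 2 was nearest to them. With 2N+ABA replicate 1 left out neither passed (adjusted p = 0.0593 and 0.0551). TraesCS3D02G126600, with the ID next to it, went from 2.81, 3.6 and 2.82 TPM to 6.51, 5.12 and 6.03 TPM (log2 fold change 0.98, adjusted p = 0.0114). TraesCS3B02G144700 went from 1.85, 1.85 and 1.9 TPM to 3.09, 2.68 and 2.78 TPM (log2 fold change 0.66, adjusted p = 0.0326). Neither gene's groups overlapped. The first lost its call when replicate 1 or replicate 3 of either group was left out (adjusted p from 0.0556 to 0.0754), and the second when any library other than 0N+ABA replicate 2 was left out (adjusted p from 0.0966 to 0.151). A further 3 CLC-c genes, TraesCS3A02G390100, TraesCS3B02G418700 and TraesCS3D02G379600, had no count in any library, where 3 counts correspond to 0.169 to 0.177 CPM.

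The CLC-c genes on chromosomes 2A, 2B and 2D were the most abundant CLC genes, and 0 of the 3 passed by edgeR or DESeq2, with 0 past an unadjusted p of 0.05. TraesCS2B02G326900 stood at 29.5, 27.7 and 32.1 TPM without nitrate and 34.1, 31.7 and 32.1 TPM with it, a log2 fold change of 0.19 with a 95% interval from -0.05 to 0.42 (adjusted p = 0.421). TraesCS2A02G309900 stood at 27.3, 26.7 and 26.9 TPM and at 30.6, 29.2 and 27.4 TPM (log2 fold change 0.16, interval from -0.07 to 0.39, adjusted p = 0.476). In CPM, every 2N+ABA library of TraesCS2B02G326900 and of TraesCS2A02G309900 lay above every 0N+ABA library, as in 11.3% of all genes. TraesCS2D02G308100, at 25.8, 23.1 and 28.1 TPM and then 28.4, 24.6 and 24.9 TPM, had overlapping groups (log2 fold change 0.07, interval from -0.19 to 0.33, adjusted p = 0.82). With the counts of the copies summed before the fit, the chromosome 3 genes gave a log2 fold change of 1.13 with an interval from 0.80 to 1.46 (adjusted p = 0.00785). The chromosome 2 genes gave 0.14 with an interval from -0.10 to 0.38 (adjusted p = 0.581). The chromosome 3 genes held 0.199, 0.274 and 0.18 of the TPM of the chromosome 2 genes in the 0N+ABA libraries, and 0.433, 0.392 and 0.475 in 2N+ABA. This ratio was higher in each 2N+ABA library than in any 0N+ABA library, and the difference between the sets was not put to a test of its own.

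**Figure D2:**
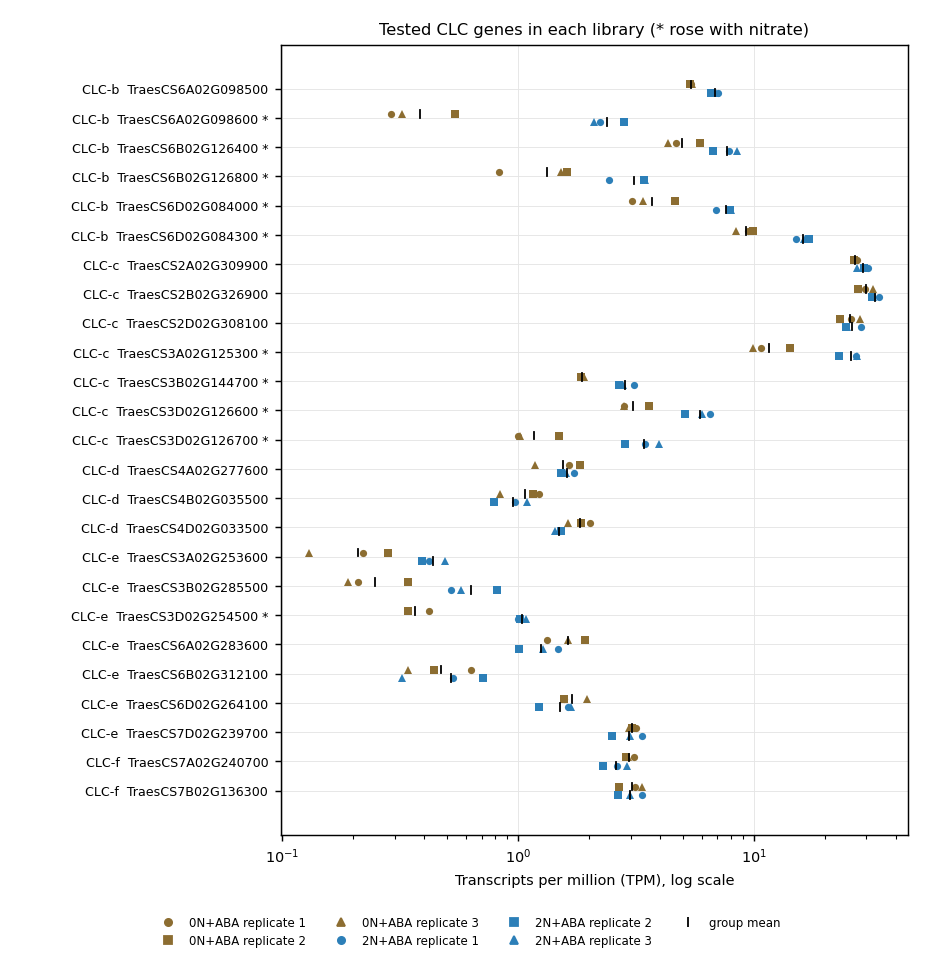
TPM on a log scale of the 25 tested CLC genes in each library, with the group means as black ticks, 0N+ABA in brown and 2N+ABA in blue. The starred CLC-b, CLC-c and CLC-e genes have their blue points to the right of the brown ones, while the chromosome 2 CLC-c genes sit near 23.1 to 34.1 TPM in both groups.

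CLC-e genes were weakly expressed, and the difference between their chromosomes was not put to a test of its own. Of the 7 tested, 1 rose, the chromosome 3D gene TraesCS3D02G254500, from 0.42, 0.34 and 0.34 TPM to 1, 1.02 and 1.08 TPM (log2 fold change 1.50, SE 0.216, adjusted p = 0.0135). It did not pass when replicate 1 or replicate 3 of either group was left out (adjusted p from 0.0572 to 0.0775). Its chromosome 3 counterparts had the same order of groups without passing. TraesCS3B02G285500 stood at 0.21, 0.34 and 0.19 TPM and then 0.52, 0.81 and 0.57 TPM (log2 fold change 1.44, SE 0.34, adjusted p = 0.0742), and passed without 0N+ABA replicate 2 (adjusted p = 0.0275). TraesCS3A02G253600 stood at 0.22, 0.28 and 0.13 TPM and then 0.42, 0.39 and 0.49 TPM (log2 fold change 1.07, SE 0.316, adjusted p = 0.137). The groups were apart in both. Both reached the filter level in every 2N+ABA library but not in every 0N+ABA library, so their order of groups adds no separate support. Summed over chromosome 3 the copies passed, with a log2 fold change of 1.37 and an interval from 0.95 to 1.80 (adjusted p = 0.0105). This sum includes TraesCS3B02G285500 and TraesCS3A02G253600, so it adds no separate support either. The chromosome 6 copies summed gave -0.18, with an interval from -0.46 to 0.11 (adjusted p = 0.548), and the single tested chromosome 7D gene 0.01, from -0.28 to 0.30. For CLC-d and CLC-f, of the Golgi network, 0 of 3 and 0 of 2 tested genes passed. Their log2 fold changes ran from -0.25 to 0.11 and from -0.13 to 0.03. At unadjusted p under 0.05 these 5 genes gave 0 calls, and summed copies gave intervals from -0.39 to 0.22 for CLC-d and from -0.29 to 0.19 for CLC-f.

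Among S-type anion channels, 2 of 12 tested genes rose, both matched to SLAH3, which in Arabidopsis conducts mainly nitrate. TraesCS3B02G254700 went from 1.12, 1.16 and 1.02 TPM to 3.44, 2.55 and 2.63 TPM (log2 fold change 1.43, SE 0.176, adjusted p = 0.00651). Its call held whichever library was left out. TraesCS3D02G228400 went from 2.44, 2.96 and 2.55 TPM to 4.89, 3.97 and 4.74 TPM (log2 fold change 0.82, SE 0.141, adjusted p = 0.0262). The call of TraesCS3D02G228400 held without 0N+ABA replicate 2 and was lost without any other library (adjusted p from 0.0584 to 0.127). The chromosome 3A gene TraesCS3A02G225100 did not pass, at 1.11, 1.92 and 1.44 TPM and then 3.19, 2.31 and 2.77 TPM (log2 fold change 0.94, adjusted p = 0.0698, and 0.00951 without 0N+ABA replicate 2). In all 5 tested SLAH3 genes every 2N+ABA library lay above every 0N+ABA library, which was so for 11.3% of all genes. On chromosomes 1A and 1D, TraesCS1A02G127500 and TraesCS1D02G126500 averaged 0.575 and 0.49 TPM over all libraries and had log2 fold changes of 0.24 and 0.69 (adjusted p = 0.562 and 0.299). The remaining 6 SLAH3 genes, TraesCS3A02G151400, TraesCS3B02G178600 and TraesCS3D02G159600 among them, never exceeded 6 counts in a library.

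SLAH1, which in Arabidopsis roots partners SLAH3 in releasing chloride to the xylem, had 3 genes, and 0 of them passed by edgeR. All 3 were higher at an unadjusted p under 0.05, against 8.62% of all genes. None of their groups overlapped, and 11.3% of all genes had every 2N+ABA library above every 0N+ABA library. TraesCS3B02G199200 stood at 7.62, 7.92 and 7.06 TPM and then 10.6, 9.37 and 12.1 TPM (log2 fold change 0.56, SE 0.118, adjusted p = 0.0535). TraesCS3A02G167000 stood at 4.08, 4.67 and 3.88 TPM and then 9.04, 5.1 and 7.96 TPM (log2 fold change 0.85, SE 0.196, adjusted p = 0.0687). TraesCS3D02G174800 stood at 2.53, 2.69 and 2.37 TPM and then 3.75, 3.11 and 3.38 TPM (log2 fold change 0.48, SE 0.144, adjusted p = 0.144). 2N+ABA replicate 2 was the lowest library of its group in each. DESeq2 called the first and second (adjusted p = 0.0491 and 0.0132), and so did edgeR without 0N+ABA replicate 2 (adjusted p = 0.0267 and 0.0309). Summed before the fit, the SLAH1 copies passed, with a log2 fold change of 0.65 and an interval from 0.36 to 0.94 (adjusted p = 0.0398).

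SLAH2, a nitrate-conducting root channel in Arabidopsis, was the name with most genes and mostly silent ones. Of 20 genes, 4 were tested, 0 passed, 13 had only a few counts and 3 had none. At an unadjusted p under 0.05, 2 of the 4 were higher, against 8.62% of all genes, and 0 lower, against 7.77%. DESeq2 called 0 of the 4. TraesCS3D02G017800 was the only SLAH2 gene above 3 TPM in every library, at 4.6, 8.39 and 3.38 TPM in 0N+ABA and 7.31, 9.33 and 8.85 TPM in 2N+ABA. Its groups overlapped through 0N+ABA replicate 2 (log2 fold change 0.69, adjusted p = 0.299), and without that library the log2 fold change was 1.16 (adjusted p = 0.0069). TraesCS3A02G028100 stood at 0.51, 1.18 and 0.58 TPM and then 1.29, 2.88 and 1.34 TPM, with groups apart (log2 fold change 1.33, SE 0.438, adjusted p = 0.177). It passed without 0N+ABA replicate 2 (adjusted p = 0.0395) and with the replicate number as a block (adjusted p = 0.0438). On chromosome 1, TraesCS1A02G424500 stood at 0.81, 0.48 and 2.22 TPM against 1.29, 1.84 and 0.97 TPM in 2N+ABA. SLAC1 itself, the guard cell channel, was close to absent in these roots. Its 3 genes on chromosomes 2A, 2B and 2D had at most 5 counts in a library and a summed level of 0.08 to 0.27 TPM, and were not tested.

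**Figure D3:**
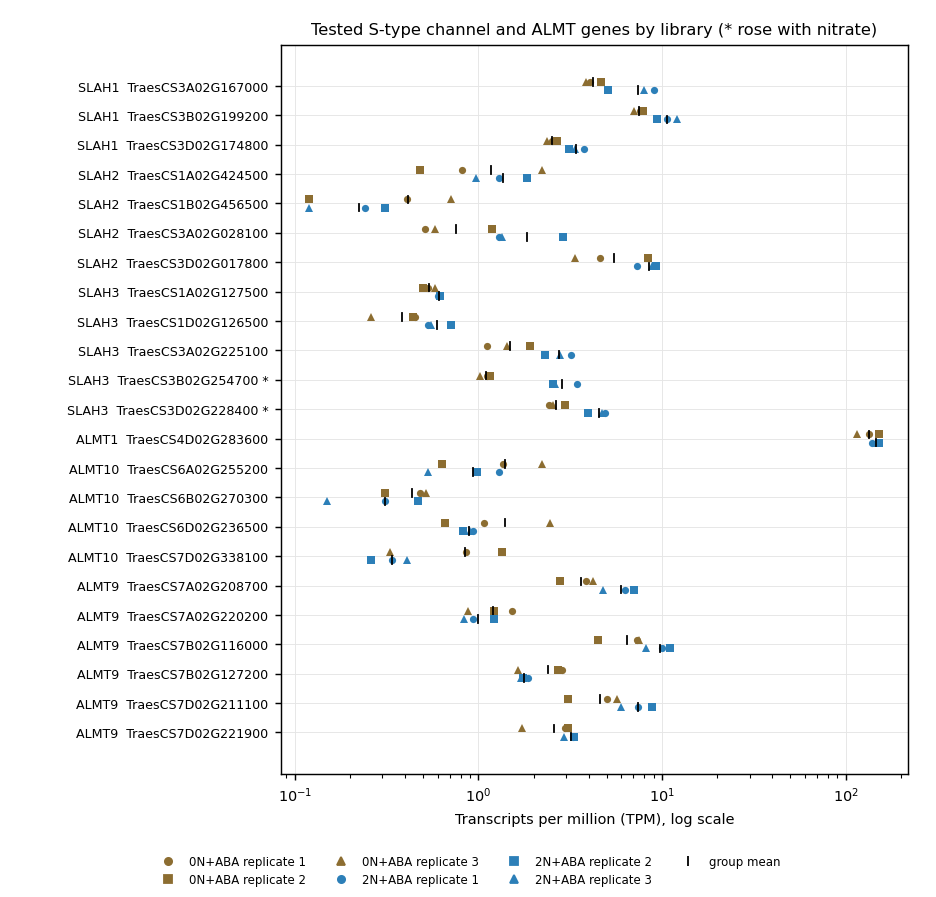
TPM on a log scale of the 12 tested S-type channel genes and 11 tested ALMT genes in each library, with group means as black ticks, 0N+ABA in brown and 2N+ABA in blue. The SLAH1 and chromosome 3 SLAH3 genes have separate groups, and ALMT1 on chromosome 4D lies above 100 TPM in both groups.

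ALMT genes held the most abundant member and 0 calls in either direction by edgeR. Of the 11 tested, 3 were higher at an unadjusted p under 0.05, against 8.62% of all genes, and 1 was lower, against 7.77%. TraesCS4D02G283600 was matched to wheat ALMT1, the malate channel through which wheat root tips release malate when aluminum is present. It stood at 134, 152 and 116 TPM in 0N+ABA and 140, 153 and 147 TPM in 2N+ABA, between 33.7% and 43.2% of the summed TPM of all 87 members in a library. The groups overlapped, and the log2 fold change was 0.18 with an interval from -0.12 to 0.49 (adjusted p = 0.55). The other 3 ALMT1 genes, on chromosomes 2A, 2B and 2D, had at most 2 counts in a library.

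ALMT9 in Arabidopsis is a vacuolar channel for chloride and malate. Its 6 tested genes, all on chromosomes 7A, 7B and 7D, divided into 3 with higher values in every 2N+ABA library and 3 with overlapping groups, and 0 passed. Of all genes, 11.3% had every 2N+ABA library above every 0N+ABA library. TraesCS7A02G208700 stood at 3.88, 2.77 and 4.22 TPM and then 6.26, 7.01 and 4.75 TPM (log2 fold change 0.79, SE 0.205, adjusted p = 0.097), and DESeq2 called it (adjusted p = 0.0295). TraesCS7B02G116000 stood at 7.29, 4.49 and 7.53 TPM and then 10, 11 and 8.17 TPM (log2 fold change 0.66, adjusted p = 0.161). TraesCS7D02G211100 stood at 5.01, 3.08 and 5.7 TPM and then 7.38, 8.83 and 6 TPM (log2 fold change 0.75, adjusted p = 0.159). In each of these genes 0N+ABA replicate 2 was the lowest library of its group. The other 3, TraesCS7A02G220200, TraesCS7B02G127200 and TraesCS7D02G221900, had log2 fold changes of -0.21, -0.37 and 0.35. ALMT10 gave 4 tested genes with log2 fold changes from -1.27 to -0.43, and the lowest, TraesCS7D02G338100, stood at 0.86, 1.34 and 0.33 TPM and then 0.34, 0.26 and 0.41 TPM (adjusted p = 0.238). The 2 genes matched to ALMT12, which forms the rapid anion channel of Arabidopsis guard cells, had at most 7 counts in a library and were not tested.

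In summed level, the CLC genes came to 141, 145 and 144 TPM in 0N+ABA and 194, 180 and 188 TPM in 2N+ABA. The S-type genes came to 27.4, 33.1 and 27.9 TPM and then 47.1, 43.3 and 46.8 TPM, and the groups were apart for both families. The ALMT genes, at 162, 173 and 144 TPM and then 173, 189 and 174 TPM, were within reach of each other, with 2N+ABA replicate 1 level with 0N+ABA replicate 2. Bread wheat carries A, B and D copies of most genes, and near-identical copies share reads, so the division among copies is uncertain. Of 17 sets of members with the same name and chromosome number that were fitted as sums, 5 rose and 0 fell. The 5 were CLC-b on chromosome 6, and CLC-c, CLC-e, SLAH1 and SLAH3 on chromosome 3. The CLC-e set includes TraesCS3B02G285500 and TraesCS3A02G253600, which did not reach the filter level in every 0N+ABA library. The 5 sets hold 19 of the members tested singly. The sets of ALMT1 on chromosome 4 and CLC-e on chromosome 7 hold 1 gene each, and some sets hold more than 1 gene on the same chromosome. The share of all genes that rose or fell in the summed fit was not worked out, so these counts have no background beside them.

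The copies of a set contributed unequally. Within the chromosome 3 CLC-c genes, the 3A gene TraesCS3A02G125300 held 65.4% ± 2.01 of the TPM in 0N+ABA and 68% ± 0.367 in 2N+ABA (SD, n = 3). The 3B gene TraesCS3B02G144700 held 10.7% ± 1.79 and 7.53% ± 0.542. Within the CLC-b genes TraesCS6D02G084300 held 37% ± 2.53 and 37% ± 1.37, and TraesCS6A02G098600 went from 1.51% ± 0.372 to 5.43% ± 0.845. The chromosome 2 CLC-c copies were near equal, at 32.8%, 36.1% and 31.1% for 2A, 2B and 2D in 0N+ABA and 33.2%, 37.2% and 29.6% in 2N+ABA. For SLAH3 on chromosome 3, the 3B gene TraesCS3B02G254700 held 21.1% ± 2.61 without nitrate and 28.1% ± 2.15 with it, and the 3D gene TraesCS3D02G228400 50.4% ± 1.95 and 44.5% ± 1.98. These shares are descriptions without a test.

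**Figure D4:**
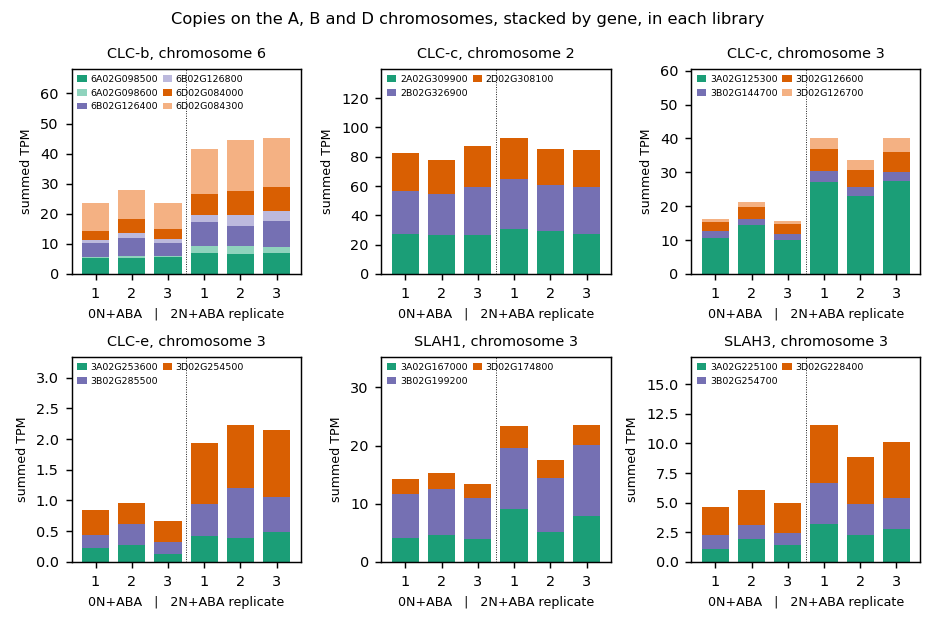
Summed TPM per library for 6 sets of copies, stacked by gene, with A copies in green, B in purple and D in orange, and 0N+ABA left of the dotted line. The bars are higher in 2N+ABA for every set shown other than CLC-c on chromosome 2, and the 3A gene makes up most of the chromosome 3 CLC-c bars.

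How many members passed depended on the library left out. Without 0N+ABA replicate 2, the library that stood apart, 19 members rose, against 5.19% of all genes tested in that fit, and the 12 were among them. With 0N+ABA replicate 1 or 3 left out, 5 rose in each case, against 0.601% and 0.636% of all genes. With 2N+ABA replicate 1, 2 or 3 left out there were 3, 8 and 5, against 0.456%, 0.758% and 0.658%. In each of these fits by edgeR 0 members fell, where 0.175%, 3.19%, 0.155%, 0.0581%, 0.222% and 0.111% of all genes did, the 0N+ABA libraries being left out first. The 3 genes called in every one were the CLC-b genes TraesCS6A02G098600 and TraesCS6D02G084300 and the SLAH3 gene TraesCS3B02G254700. DESeq2 called 16 members, with all of the 12 among them, against 2.65% of the genes it gave an adjusted p. By limma-voom 0.486% of all genes fell and by DESeq2 1.28%. limma-voom called 11, all of them among the 12, against 1.57% of all genes.

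**Figure D5:**
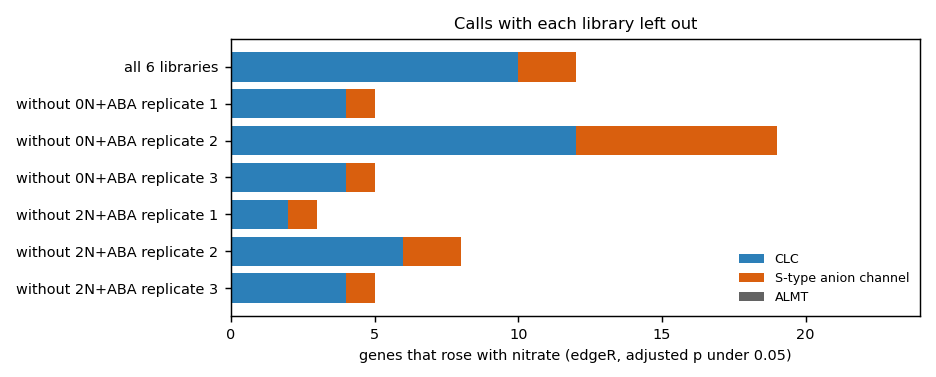
Number of genes that rose with nitrate by edgeR at an adjusted p under 0.05 with all 6 libraries and with each library left out, stacked by family. The count is 12 with all libraries, 19 without 0N+ABA replicate 2 and 3 without 2N+ABA replicate 1, and ALMT genes add 0 throughout.

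Other genes of anion transport and its control were read from 8 lists of protein names, against the 1.67% of all genes that rose and the 0.579% that fell. Without 0N+ABA replicate 2 these shares of all genes were 5.19% and 3.19%, and without any other library they were at most 0.758% and 0.222%. The CLC-g genes, matched to another vacuolar CLC of Arabidopsis, carry a different form of name ("chloride channel-like") and so fall outside the 87. Of 6 tested, the 3 on chromosomes 5A, 5B and 5D rose and the 3 on chromosomes 2A, 2B and 2D did not pass. The genes on 2A, 2B and 2D had log2 fold changes of -0.37, -0.48 and -0.21 (adjusted p = 0.404, 0.23 and 0.794 by edgeR). The 2B gene, TraesCS2B02G546000, was lower at an unadjusted p under 0.05. TraesCS5D02G456000 went from 3.29, 4.06 and 3.22 TPM to 13.6, 13.6 and 12.2 TPM (log2 fold change 1.95, SE 0.132, adjusted p = 0.000297). TraesCS5B02G457100 went from 4.76, 6.87 and 5.49 TPM to 19.4, 18.6 and 18 TPM (log2 fold change 1.76, SE 0.148, adjusted p = 0.000916), and TraesCS5A02G449500 from 13.6, 17.3 and 14.5 TPM to 32.3, 30.8 and 30.1 TPM (log2 fold change 1.09, SE 0.123, adjusted p = 0.00423). All of these calls held whichever library was left out, and the groups lay far apart. Anoctamin-like genes, of a family that holds chloride channels in animals, gave 0 calls among 3.

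Of 29 tested genes for other chloride carriers (cation-chloride cotransporters, the ICln protein and NRT1/PTR subfamily 2), 0 rose and 0 fell by edgeR, DESeq2 or limma-voom. At an unadjusted p under 0.05, 1 of them was higher, against 8.62% of all genes, and 4 lower, against 7.77%. Without 0N+ABA replicate 2, 1 of them rose. Vacuolar proton pumps supply the proton gradient on which CLC exchangers run, and 8 of 71 rose (11.3%), with a median log2 fold change of 0.25. DESeq2 and limma-voom called 0 falls among the 71. Of these 32 were higher at an unadjusted p under 0.05, against 8.62% of all genes, and 1 was lower, against 7.77%. The 8 were 3 genes for the 16 kDa proteolipid subunit of the V-type ATPase, 3 for its subunit D, 1 for subunit B2 and 1 for the vacuolar pyrophosphatase. TraesCS5D02G130000, a proteolipid subunit gene, went from 81.7 ± 5.81 to 129 ± 2.89 TPM (SD, n = 3, adjusted p = 0.0147). Without 0N+ABA replicate 2, 13 pump genes rose and 1 fell, and 0 rose when any other library was left out.

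Kinases of the SnRK2, calcium-dependent and CBL-interacting families, some of which open SLAC1-type channels by phosphorylation in Arabidopsis, gave 16 rises and 2 falls among 155 genes (10.3% rose), with a median log2 fold change of 0.02. TraesCS1D02G082500, matched to CBL-interacting protein kinase 17, went from 6.86 ± 0.927 to 21.8 ± 2.63 TPM (adjusted p = 0.000779). TraesCS2A02G251800, matched to kinase 23 of that family, fell from 26.4 ± 0.92 to 16.3 ± 1.14 TPM (adjusted p = 0.0239), a call lost without any library other than 0N+ABA replicate 2 (adjusted p from 0.0596 to 0.121). With each library left out in turn, the 0N+ABA ones first, 6, 25, 5, 3, 6 and 8 kinase genes rose, and 11 fell without 0N+ABA replicate 2 and 0 in each other fit. Among 211 PP2C phosphatase and ABA receptor genes, 3 rose by edgeR (1.42%, near the 1.67% of all genes). By edgeR, DESeq2 or limma-voom 0 of them fell, and DESeq2 called 7 rises. At an unadjusted p under 0.05, 28 of them were higher, against 8.62% of all genes, and 11 lower, against 7.77%. In the same order 0, 12, 0, 0, 0 and 2 of these rose, with 6 falls without 0N+ABA replicate 2. In that fit 5.19% of all genes rose and 3.19% fell. The list called organic acid exporters held only genes with DETOXIFICATION or tonoplast dicarboxylate transporter names, and which of these proteins export organic acids was not tested. Of its 128 tested genes 2 rose and 2 fell by edgeR, all named DETOXIFICATION 40 or 49. Of 22 mechanosensitive ion channel genes 1 rose and 0 fell by edgeR, DESeq2 or limma-voom, with 4 higher and 1 lower at an unadjusted p under 0.05. Of 85 potassium channel and transporter genes 5 rose by edgeR (5.88%), 7 by DESeq2 and 3 by limma-voom, and 0 fell by these tools. At an unadjusted p under 0.05, 23 potassium genes were higher and 7 lower, where 8.62% and 7.77% of all genes were. In that order of left-out libraries, 0, 6, 1, 0, 0 and 0 organic acid exporter genes rose, 0, 3, 1, 0, 0 and 0 mechanosensitive channel genes and 0, 12, 3, 0, 1 and 3 potassium genes. Falls without 0N+ABA replicate 2 numbered 11, 0 and 3 for these lists.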

How the data were processed

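Poly(A) RNA from 6 root samples was sequenced, per the labels' protocols; neither strand nor molecular identifiers are recorded, so reads need not be independent molecules. The submitters' processing notes name HISAT and Bowtie2. For the counting tool, genome build and gene models the entry is: not given in the sources used here. Estimated counts per gene, not normalized, and TPM values were deposited by the authors, per the file headers. FPKM values, also deposited, were not used, nor were 2 columns of other groups and 14 of group averages or normalized values. Chromosomes come from gene IDs, since 0 IDs matched the reference table at hand, and no sequences are shown.

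After rounding, counts were fitted in R 4.3.3 with edgeR 4.0.16 (filterByExpr, TMM, glmQLFit, glmQLFTest), 2N+ABA against 0N+ABA without covariates, with Benjamini-Hochberg adjustment over 53862 genes, which held 99.61% of counts. SEs and 95% intervals follow from the F statistic. Rose and fell mean an adjusted p under 0.05. The fit was tested on simulated data. Members and lists were chosen with earlier results of these data known. Named are called members with their copies and, in each family, the 3 most abundant and the 3 with the smallest p; further names were chosen after their values were seen. The list word MATE was matched as a whole word, decided after the lists were written, and matched 0 genes. Alternatives were DESeq2 1.42.0, limma-voom (limma 3.58.1), RLE scaling, other filters, a replicate block, log2(TPM + 1), summed copies and leaving out each library. Replicates differed beyond counting noise. Floors of 3 counts cover counting error only.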

Additional observations from a re-analysis of the deposited data

How the results depend on the processing

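The 12 rises were 12 with RLE scaling, 16 with DESeq2, 11 with limma-voom, 14 without a filter, 12 with a filter of 10 counts in 3 samples and 8 with limma on log2(TPM + 1). Leaving out each library gave 3 to 19 rises, and summing copies placed 19 members in sets that rose. The cause of these differences was not tested, though each left-out fit had fewer samples. Falls numbered 0 in all of these. The deviations of same-numbered replicates from their group means had correlations of 0.076, -0.229 and -0.217, which gave no sign of pairing by number. With 3 libraries in each group, such values cannot exclude pairing. A fit with the replicate block gave 9 rises, 8 of the 12 among them. Over 26 named and tested genes, 281 of 338 values under an alternative kept direction and call, 44 lost the call, 13 gained it and 0 reversed. Members with few counts, 32 of 87, could not be compared at this depth.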
